A study of Rattus norvegicus with 12 samples.

Results

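The genes described here are 10 regulators of how many mitochondria a cell makes and of how those mitochondria fuse and divide: Ppargc1a, Ppargc1b, Esrra, Esrrg, Nrf1, Tfam, Mfn1, Mfn2, Opa1 and Dnm1l. They were chosen by gene symbol from the count tables of 34322 genes, with earlier results of these data known. All 10 were found in both tables and passed the filter on low counts in every fit. The libraries were made from hearts of wild-type male Sprague-Dawley (SD) rats of 180-200 g. The rats received sorafenib by gavage at 50 mg/kg once daily for 14 or 28 days, or an equal volume of deionized water for the same number of days. Sorafenib is an inhibitor of RAF kinases and of several receptor tyrosine kinases that is used against cancer, and the series names its cardiac toxicity as the subject. Each of the 4 groups (water or sorafenib, day 14 or day 28) had 3 libraries of ribosomal-RNA-depleted RNA. They are named here by the number in their titles: water replicates 2, 3 and 7 and sorafenib replicates 5, 6 and 7 at day 14, and replicates 2, 3 and 4 of both treatments at day 28. Whether every library stands for a rat of its own is not stated in the labels; p-values here therefore reflect only how much these libraries differ among themselves, which may be technical.

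PGC-1 alpha and PGC-1 beta, encoded by Ppargc1a and Ppargc1b, are transcriptional coactivators: they do not bind DNA themselves but are recruited by factors such as the estrogen-related receptors and NRF1, which switch on nuclear genes for respiration. TFAM, one of those nuclear gene products, enters mitochondria, packages their DNA and starts its transcription. Mitofusins (Mfn1, Mfn2) fuse outer membranes, OPA1 fuses inner membranes and shapes cristae, and the dynamin-related protein encoded by Dnm1l (DRP1) constricts and divides the organelle; the heart, which runs on fatty acid oxidation, holds these proteins at high levels.

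None of the 10 genes passed the test at either day, where 0% of all genes tested passed. Most estimates leaned the same way. With sorafenib, 7 of 10 had an estimate below 0 at day 14 and 8 of 10 at day 28, against 49.8% and 50.2% of all genes. Dnm1l, the fission gene, stood lowest, at 68.9% of the water level over both days (log2 fold change -0.54 ± 0.16 SE, adjusted p = 0.0715 in edgeR's quasi-likelihood test, which misses the threshold of 0.05). Ppargc1b and Nrf1 were the 2 genes with values on the higher side at both days. Single libraries carried part of the lean to lower values. Without sorafenib day 14 replicate 5, the day 14 estimates of Esrrg (0.00045), Mfn1 (0.0021), Tfam (0.033) and Mfn2 (0.062) were above 0. Those of Dnm1l, Esrra and Opa1 stayed below 0. Without that library and sorafenib day 28 replicate 3, a choice made after seeing the data, the estimates over both days were 0.012 for Ppargc1a and -0.36 for Dnm1l. The others that had been below 0 ran from -0.22 (Esrra) to -0.039 (Esrrg). Both libraries left out were low in most members, so values nearer to or above 0 without them are built in. Leaving out sorafenib day 28 replicate 4 instead moved Dnm1l the other way, to -0.73.

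Total counts were 13746366 to 18534816 per library at day 14. Of the day 28 libraries, 5 had 16785038 to 26403196 counts, and sorafenib replicate 3 had 1036483, so that 1 count there is worth 0.965 CPM (counts scaled to a common library total) and Tfam rests on 19 counts. Libraries stood apart in other ways: the ribosomal precursor Rn45s took 0.842% of counts in sorafenib day 14 replicate 5, 1.25% in sorafenib day 28 replicate 2 and 1.64% in sorafenib day 28 replicate 3, and at most 0.537% elsewhere. All 10 cardiomyocyte markers (Myh6, Actc1, Tnnt2, Tnni3, Myl2, Ryr2, Atp2a2, Myl3, Pln and Ttn) were detected. Their summed level was 132645 to 169108 CPM in water and 102099 to 167000 CPM in sorafenib libraries at day 14, and 155962 to 224254 against 114142 to 188868 CPM at day 28. The lowest sums were in sorafenib day 14 replicate 5 (102099 CPM) and sorafenib day 28 replicate 3 (114142 CPM). In tissue RNA, fewer cells of a type and less RNA per cell cannot be told apart. Of 3 markers of brown fat, another tissue rich in Ppargc1a, Ucp1 did not exceed 0.836 CPM and Elovl3 was at 0 in all libraries but sorafenib day 28 replicate 3 (1.67 CPM), while Cidea was at 41.1 to 168 CPM. Of the adipocyte markers Adipoq did not exceed 0.345 CPM, and Fabp4 was at 119 to 331 CPM. The part of fat in the members' values was not tested.

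Upstream sequences are shown, as a description, for the members in which a searched motif was found. The sequences are the 250 bases before the transcription start in the RefSeq promoter table of assembly GRCr8, which holds an entry for 9 of the 10 genes. Letters searched on both strands were AAGGTCA (element of estrogen-related receptors), GCGCATGC (NRF1 core), CCGGAAG (GABP core), TGACGTCA (cyclic AMP element) and CACGTG (E-box). None of these patterns contains another. Capitals mark the match, and each sequence is read 5′ to 3′ on the strand of the gene.
Ppargc1a (chr14:63634058-63634307, plus strand): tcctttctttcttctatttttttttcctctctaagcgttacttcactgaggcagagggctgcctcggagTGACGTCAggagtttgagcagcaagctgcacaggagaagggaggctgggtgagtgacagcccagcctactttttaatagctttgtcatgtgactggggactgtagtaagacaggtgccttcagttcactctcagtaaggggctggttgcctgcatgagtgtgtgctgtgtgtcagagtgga
Esrra (chr1:213543306-213543555, minus strand): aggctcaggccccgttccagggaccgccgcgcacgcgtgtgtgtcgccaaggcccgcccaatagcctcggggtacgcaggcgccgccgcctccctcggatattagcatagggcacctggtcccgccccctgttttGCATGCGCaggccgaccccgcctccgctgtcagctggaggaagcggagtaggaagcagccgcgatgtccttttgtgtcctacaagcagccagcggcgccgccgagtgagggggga
Tfam (chr20:17355123-17355372, plus strand): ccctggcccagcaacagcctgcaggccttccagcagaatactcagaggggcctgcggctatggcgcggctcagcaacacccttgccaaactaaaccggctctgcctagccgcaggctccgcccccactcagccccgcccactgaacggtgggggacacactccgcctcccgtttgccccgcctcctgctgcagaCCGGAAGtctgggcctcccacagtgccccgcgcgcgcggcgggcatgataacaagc
Mfn1 (chr2:117241508-117241757, plus strand): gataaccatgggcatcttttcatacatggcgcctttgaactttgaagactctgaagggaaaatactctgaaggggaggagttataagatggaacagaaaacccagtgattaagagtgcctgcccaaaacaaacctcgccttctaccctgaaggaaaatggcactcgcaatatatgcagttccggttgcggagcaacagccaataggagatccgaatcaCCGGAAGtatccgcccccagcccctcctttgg
In Ppargc1a the cyclic AMP element spans positions -181 to -174 from the start, and 1.59% of 33469 rat promoter windows of the same length hold one. In Esrra the NRF1 core lies on the opposite strand at -115 to -108 (2.20% of windows). The GABP core lies at -56 to -50 in Tfam and at -32 to -26 in Mfn1 (7.27% of windows). AAGGTCA, present in 3.99% of windows, and CACGTG, present in 5.59%, were not among the letters of any member's window. Bases G and C make up 50.4% of the Ppargc1a window and 48.8% of that of Mfn1, near the 51.2% median of all windows, against 68.8% in Esrra and 68.4% in Tfam. The windows of Ppargc1b, Esrrg (in each of its entries), Nrf1, Opa1 and Dnm1l held no match. A match describes letters only, binding was not measured, and a link to the members' levels was not tested.

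Levels of different genes can be compared only per length, here as CPM per kilobase of annotated exon. In water at day 14 the order began with Mfn2 at 101.7 ± 5.37 (SD, n = 3). Mfn1 at 68.5 ± 9.37 and Opa1 at 62.3 ± 2.03 followed and overlapped. Dnm1l stood at 49.8 ± 2.34 and Esrra at 40.0 ± 3.41 CPM per kilobase, with no shared values. Tfam followed at 22.7 ± 1.18, then Ppargc1b at 15.4 ± 4.23 and Ppargc1a at 13.6 ± 0.916, which overlapped. Esrrg at 8.07 ± 0.639 and Nrf1 at 2.67 ± 0.107 were last. These 2 genes have the longest annotated exon unions of the set (14783 and 11247 bases), which lowers their value per kilobase. The 3 fusion genes held the first 3 ranks in all 4 groups. At day 28 Esrra ranked above Dnm1l in both treatments, at 46.3 ± 7.06 against 39.5 ± 4.92 CPM per kilobase in water and 33.9 ± 3.56 against 26.6 ± 10.8 in sorafenib. In sorafenib at day 28 Ppargc1b (23.9 ± 3.95) also ranked above Tfam (17.6 ± 6.62). Values overlapped within each of these pairs.

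**Figure D1:**
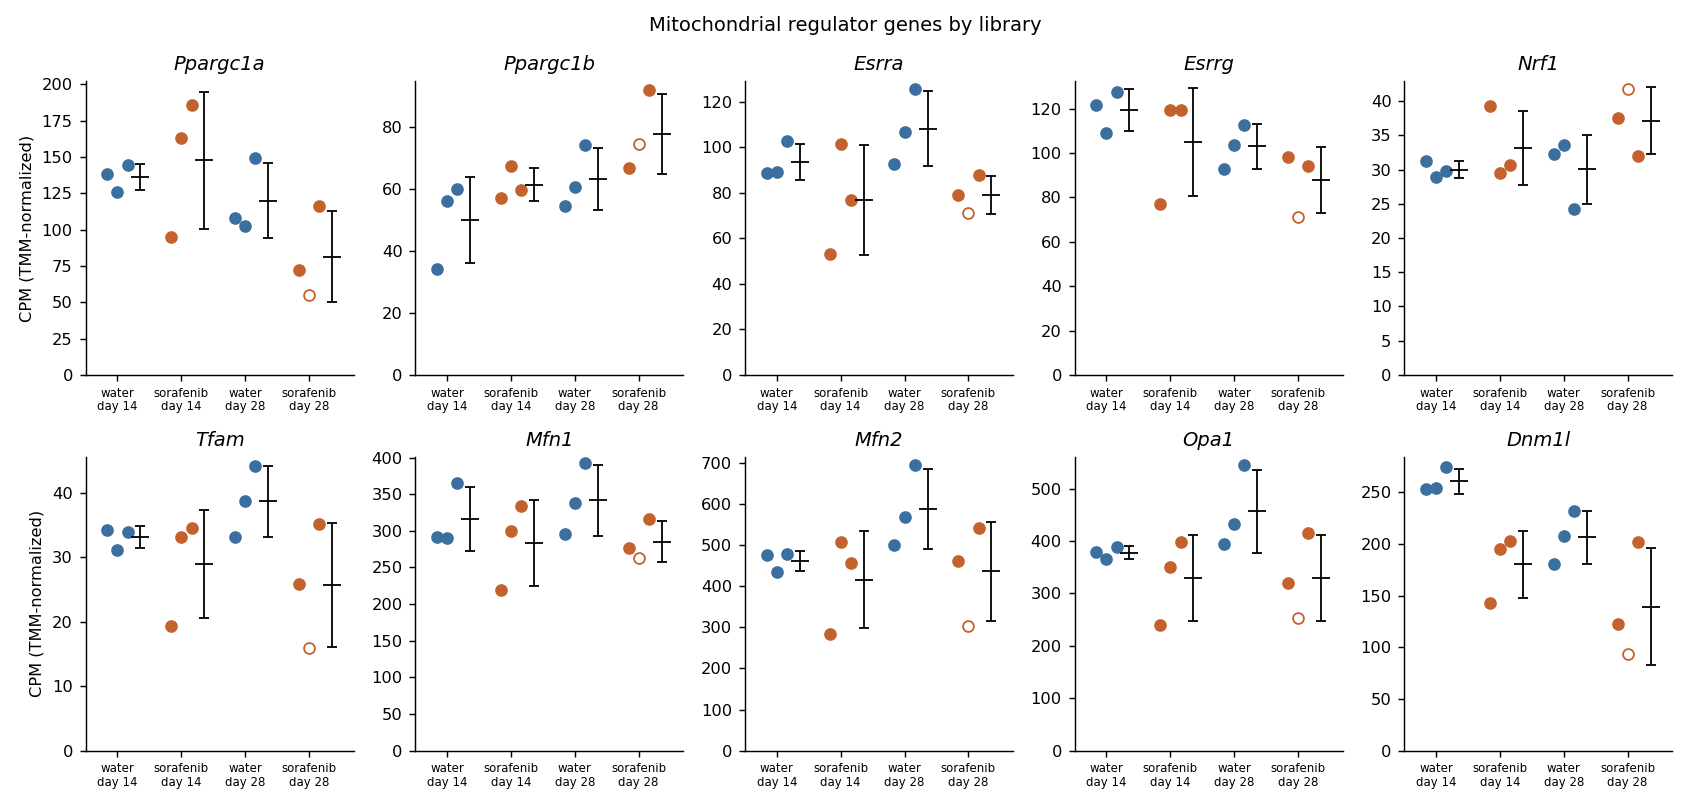
TMM-normalized CPM (vertical axis, from 0, on a scale of its own for each gene) of the 10 regulators in every library, with water in blue and sorafenib in orange; the bar beside each group is the mean ± SD of 3 libraries and the open circle is the shallow library, sorafenib day 28 replicate 3. The groups overlap except for Dnm1l at day 14 and Esrra at day 28. Of all genes, 20.8% at day 14 and 21.4% at day 28 do not overlap.

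Ppargc1a (chr14:58860752-59516525, plus strand, in assembly mRatBN7.2 as for all gene positions below) encodes PGC-1 alpha, the coactivator induced by energy demand. At day 14 it was at 138, 126 and 144 CPM in water replicates 2, 3 and 7 and at 94.9, 163 and 185 CPM in sorafenib replicates 5, 6 and 7. The day 28 libraries had 108, 102 and 150 CPM in water and 72.5, 55.2 and 116 CPM in sorafenib replicates 2, 3 and 4. Sorafenib libraries lay on both sides of water at day 14, and at day 28 replicates 2 and 3 were below every water library while replicate 4 was among them. The log2 fold change was 0.12 ± 0.22 (SE) at day 14 and -0.50 ± 0.24 at day 28 (adjusted p = 0.835 and 0.366, edgeR). The difference between the days was -0.64 (95% interval -1.45 to 0.16, adjusted p = 0.999, edgeR). That is the largest such difference among the 10 genes, and it did not pass.

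Ppargc1b (chr18:54758891-54861103, minus strand) encodes PGC-1 beta, the related coactivator that sustains basal mitochondrial content. Its levels at day 14 were 34.2, 55.9 and 59.8 CPM in water and 56.9, 67.4 and 59.6 CPM in sorafenib. Those at day 28 were 54.6, 60.6 and 74.1 CPM in water and 66.7, 74.4 and 91.8 CPM in sorafenib. Water replicate 2 was the low library at day 14 and sorafenib replicate 4 the high one at day 28, and the groups overlapped at both days. The log2 fold change was 0.30 ± 0.20 at day 14 and 0.34 ± 0.17 at day 28 (adjusted p = 0.519 and 0.380, edgeR).

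The ratio of both coactivators within a library does not depend on its scaling. As log2(Ppargc1a/Ppargc1b) in counts it was 2.02, 1.17 and 1.27 in water and 0.74, 1.27 and 1.64 in sorafenib at day 14, which overlap. The day 28 ratio was 0.98, 0.76 and 1.01 in water and 0.12, -0.43 and 0.34 in sorafenib. All 3 sorafenib libraries were below all water libraries there, and the sorafenib mean was 0.01 with the shallow library and 0.23 without it, against 0.92 in water. No test was made on ratios, and how often other pairs of genes separate in this way was not counted.

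Esrra (chr1:204104100-204114182, minus strand) encodes the estrogen-related receptor alpha, an orphan nuclear receptor that is a main partner of PGC-1. At day 14 it was at 88.9, 89.2 and 103 CPM in water and 53.0, 101 and 76.7 CPM in sorafenib. At day 28 water libraries were at 92.6, 107 and 126 CPM and sorafenib libraries at 78.9, 71.1 and 87.7 CPM. The groups overlapped at day 14, and at day 28 every sorafenib library was below every water library, as was so for 11.6% of all genes. The day 28 log2 fold change was -0.40 ± 0.16 (95% interval -0.75 to -0.05, unadjusted p = 0.0282, adjusted p = 0.300, edgeR), and at day 14 it was -0.28 ± 0.20 (adjusted p = 0.560). Trmt112 on the opposite strand shares 52 of the 2340 exon bases of Esrra and was at 3.42 to 10.5 CPM; the counting did not use strand.

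Esrrg (chr13:99167656-99788016, plus strand) encodes the related receptor gamma, which drives oxidative metabolism in the heart after birth. Its levels were 121, 109 and 127 CPM in water and 77.1, 119 and 119 CPM in sorafenib at day 14. At day 28 they were 92.7, 104 and 113 CPM in water and 98.3, 71.1 and 94.3 CPM in sorafenib. The groups overlapped at both days, and 1 sorafenib library per day (replicate 5 at day 14, replicate 3 at day 28) was well below the other libraries. The log2 fold changes were -0.18 ± 0.17 and -0.17 ± 0.16 (adjusted p = 0.672 and 0.622, edgeR). Within libraries, log2(Esrrg/Esrra) was 0.29 to 0.45 in water at day 14 and -0.16 to 0.00 in water at day 28, with no overlap between these 2 water groups. How often other pairs of genes separate between the water days was not counted.

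Nrf1 (chr4:58664932-58772328, plus strand) encodes nuclear respiratory factor 1, which activates nuclear genes for respiratory subunits and for mitochondrial DNA upkeep. At day 14 it was at 31.2, 28.9 and 29.9 CPM in water and 39.3, 29.4 and 30.7 CPM in sorafenib. In the day 28 libraries it was at 32.2, 33.7 and 24.3 CPM in water and 37.6, 41.8 and 32.0 CPM in sorafenib. The 3 highest libraries (sorafenib day 28 replicates 3 and 2 and sorafenib day 14 replicate 5) are those with the highest Rn45s share, in which most other members were low. The log2 fold changes were 0.15 ± 0.15 and 0.32 ± 0.20 (adjusted p = 0.679 and 0.462, edgeR), and the groups overlapped at both days.

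Tfam (chr20:17356243-17368293, plus strand) had values of 34.2, 31.1 and 33.9 CPM in water and 19.3, 33.2 and 34.5 CPM in sorafenib at day 14. Levels at day 28 were 33.1, 38.7 and 44.1 CPM in water and 25.9, 15.9 and 35.2 CPM in sorafenib. Sorafenib replicate 5 alone was low at day 14, and at day 28 replicates 2 and 3 were below the water range and replicate 4 within it. The log2 fold change was -0.19 ± 0.20 at day 14 and -0.48 ± 0.23 at day 28 (adjusted p = 0.703 and 0.355, edgeR). With 1 library left out, the day 28 value ranged from -0.73 to -0.33.

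Of the fusion genes, Mfn1 (chr2:115313380-115359651, plus strand) was at 292, 291 and 366 CPM in water and 219, 299 and 333 CPM in sorafenib at day 14. Day 28 levels were 296, 337 and 392 CPM in water and 276, 263 and 317 CPM in sorafenib. Only sorafenib replicate 5 lay outside the water range at day 14, and replicates 2 and 3 did so by a small margin at day 28. Its log2 fold changes, -0.15 ± 0.19 and -0.22 ± 0.17, were the smallest of the fusion genes at day 28 (adjusted p = 0.745 and 0.560, edgeR).

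Mfn2 (chr5:158304285-158335502, minus strand), which also tethers mitochondria to the endoplasmic reticulum, had 476, 434 and 478 CPM in water and 283, 509 and 457 CPM in sorafenib at day 14. Levels at day 28 were 502, 568 and 695 CPM in water and 461, 304 and 543 CPM in sorafenib. Sorafenib day 14 replicate 5 and sorafenib day 28 replicate 3 were the lowest libraries of the 12, and the groups overlapped at both days. The log2 fold changes were -0.15 ± 0.21 and -0.39 ± 0.23 (adjusted p = 0.783 and 0.442, edgeR).

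Opa1 (chr11:71108100-71185170, minus strand) followed Mfn2 closely. It was at 379, 365 and 389 CPM in water and 239, 351 and 399 CPM in sorafenib at day 14. At day 28 water libraries had 393, 432 and 546 CPM and sorafenib libraries 320, 253 and 416 CPM. Again replicate 5 at day 14 and replicates 2 and 3 at day 28 were the sorafenib libraries under the water range by the widest margin. The log2 fold changes were -0.19 ± 0.19 and -0.43 ± 0.21 (adjusted p = 0.679 and 0.372, edgeR).

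Dnm1l (chr11:84581216-84632382, plus strand) encodes the GTPase that cuts mitochondria. At day 14 it was at 253, 254 and 275 CPM in water and 143, 196 and 203 CPM in sorafenib. All 3 sorafenib libraries were below all 3 water libraries, as was so for 10.3% of all genes, and replicate 5 was the lowest. Day 28 levels were 180, 208 and 232 CPM in water and 122, 93.6 and 203 CPM in sorafenib. Replicates 2 and 3 were below the water range there, and replicate 4 was inside it. Group means were 261 ± 12.3 against 181 ± 32.4 CPM at day 14 and 207 ± 25.7 against 139 ± 56.4 CPM at day 28 (SD, n = 3 each).

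The log2 fold change of Dnm1l was -0.53 ± 0.16 at day 14 (95% interval -0.89 to -0.17, unadjusted p = 0.00849, adjusted p = 0.214, edgeR) and -0.52 ± 0.24 at day 28 (-1.06 to 0.02, adjusted p = 0.351). The difference between the days was -0.01, with an interval of -0.71 to 0.69. Over both days the value was -0.54 with an interval of -0.89 to -0.19 and an unadjusted p of 0.00535 (edgeR). DESeq2 gave an adjusted p of 0.0221 for it, so the call depends on the tool. Leaving out sorafenib day 28 replicate 4 moved it to -0.73 (adjusted p = 0.0126, edgeR), and leaving out both sorafenib day 14 replicate 5 and sorafenib day 28 replicate 3 moved it to -0.36 (adjusted p = 0.145). Yars2 on the opposite strand shares 33 of the 5236 exon bases of Dnm1l and was at 10.02 to 17.3 CPM.

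The balance of fusion to fission transcripts within a library was taken as a log2 ratio of counts. For Mfn2 to Dnm1l it was 0.91, 0.77 and 0.80 in water and 0.98, 1.38 and 1.17 in sorafenib at day 14. For Opa1 to Dnm1l it was 0.58, 0.52 and 0.50 in water and 0.74, 0.84 and 0.98 in sorafenib. In both ratios every sorafenib library was above every water library at day 14, including replicate 5, in which all 3 genes were low. Both ratios share Dnm1l, which was itself below water in all sorafenib libraries at day 14. They therefore add no separate result to that one. At day 28 the ratios overlapped between treatments: Mfn2 to Dnm1l was 1.45 to 1.58 in water and 1.42 to 1.92 in sorafenib. Opa1 to Dnm1l was 1.06 to 1.23 in water and 1.04 to 1.44 in sorafenib. Both ratios were higher in all water libraries of day 28 than in all water libraries of day 14. The water means of Mfn2 to Dnm1l were 0.826 ± 0.074 at day 14 and 1.503 ± 0.070 at day 28 (SD, n = 3 each). Those of Opa1 to Dnm1l were 0.534 ± 0.042 and 1.138 ± 0.090. Dnm1l is again shared by both ratios. Between the water days Mfn2, Opa1 and Dnm1l did not pass (adjusted p = 0.409, 0.479 and 0.400, edgeR). How often other pairs of genes separate between the water days was not counted. Age, length of gavage and any difference in handling cannot be told apart between the days.

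**Figure D2:**
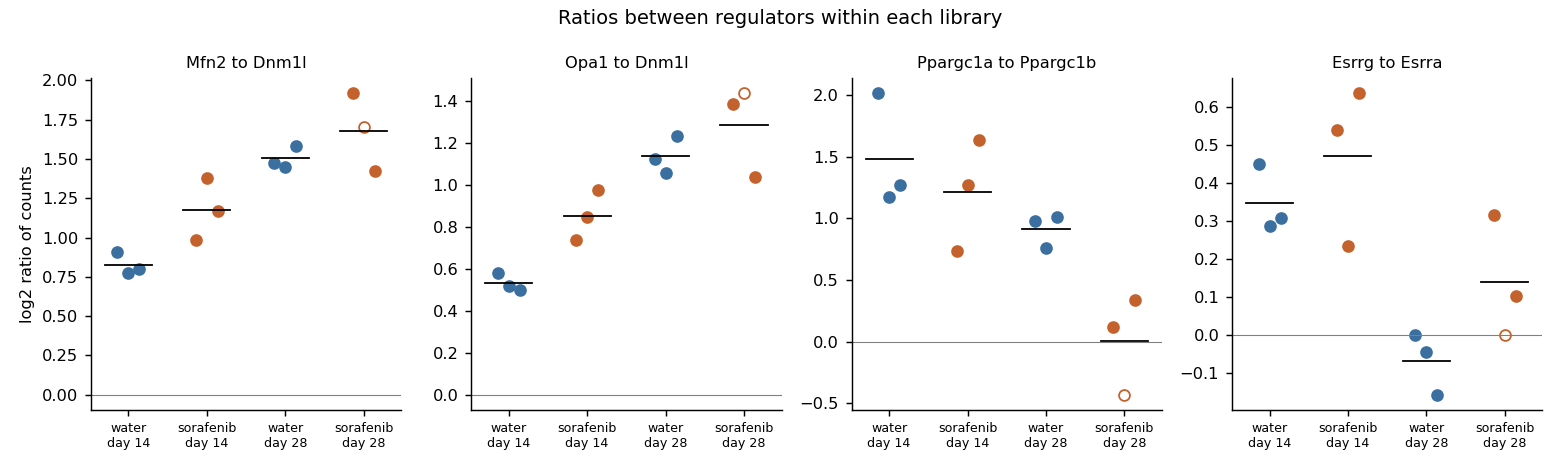
Log2 ratio of counts (vertical axis) for 4 pairs of regulators in each library, water in blue and sorafenib in orange, with the group mean as a line and the shallow library as an open circle. Sorafenib and water separate for Mfn2 to Dnm1l and Opa1 to Dnm1l at day 14 and for Ppargc1a to Ppargc1b at day 28.

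Counted over the 10 genes, 0 of 10 passed an adjusted p of 0.05 at day 14, day 28, the average of both days, the difference between the days and day 28 against day 14 in water (edgeR's quasi-likelihood test). Of all genes tested the shares that passed were 0% at day 14, 0% at day 28, 4.41% for the average, 0% for the difference and 8.51% for water. At an unadjusted p under 0.05 the members numbered 1 (Dnm1l) at day 14, 1 (Esrra) at day 28, 2 (both) for the average and 0 for the other comparisons, against 14.0%, 14.9%, 24.3%, 4.42% and 24.5% of all genes. DESeq2 called Dnm1l in the average and no member in the other comparisons, where it called 2.48% of all genes at day 14, 1.72% at day 28, 10.02% for the average, 0.0185% for the difference and 13.2% for water. The members' shares are near or below these. Libraries of both treatments did not overlap for 1 of 10 members at each day, against 20.8% of all genes at day 14 and 21.4% at day 28. The average uses the same libraries as the comparisons of single days, and the water comparison shares its libraries with all of them.

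The median log2 fold change of the members was -0.16 at day 14 and -0.40 at day 28, with 7 and 8 of 10 below 0, where the medians of all genes were 0.00 and -0.0026 with 49.8% and 50.2% below 0. For the average it was -0.25 with 8 of 10 below 0, against 50.8% of all genes. This is a description, since the members vary together and are not independent. The 95% intervals of single genes reached 0.336 to 0.485 to either side of the log2 estimate at day 14 and 0.350 to 0.543 at day 28.

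**Figure D3:**
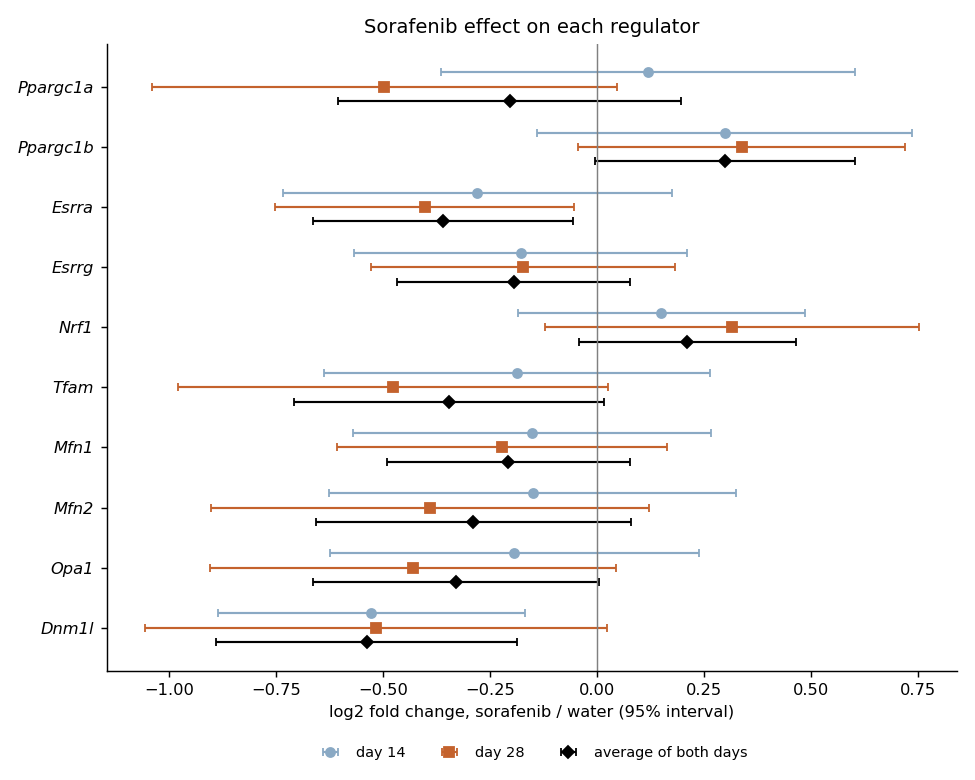
Log2 fold change of sorafenib over water (horizontal axis) for each regulator at day 14, day 28 and over both days, with the 95% interval of edgeR's fit as a bar. Intervals for Dnm1l at day 14 and over both days and for Esrra at day 28 and over both days do not reach 0 before adjustment, and none of the 10 genes passed after adjustment over all genes.

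Most members varied together from library to library. On log2 CPM centred on the mean of each day, the 8 genes other than Ppargc1b and Nrf1 had pairwise Pearson r of 0.744 to 0.977 over the 12 libraries. Without sorafenib day 14 replicate 5 and sorafenib day 28 replicate 3 the range was 0.348 to 0.958 over 10 libraries. Nrf1 ran opposite to all 8 (r of -0.932 to -0.794), and Ppargc1b had r of -0.145 to 0.119 with them. These r are descriptions: all points share depth and scaling within a library, and the treatment effect is part of them.

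Most members also varied with the cardiomyocyte marker sum of the same library. Over 12 libraries r was 0.935 for Mfn2, 0.918 for Opa1, 0.91 for Tfam, 0.897 for Ppargc1a and -0.871 for Nrf1. Without the 2 libraries named above these were 0.745, 0.718, 0.659, 0.732 and -0.692. For Dnm1l r was 0.795 over 12 libraries and 0.387 over 10, and for Ppargc1b 0.242 and 0.676. Mfn1, Esrrg and Esrra had 0.908, 0.905 and 0.819 over 12, and 0.878, 0.662 and 0.557 over 10. With each count taken over the cardiomyocyte marker counts of its library, Dnm1l at day 14 was still below all water libraries in all 3 sorafenib libraries, by -0.46 on the log2 scale on average. On this scale Tfam, Mfn2 and Opa1 were below water without overlap at day 28 (means -0.38, -0.18 and -0.21) and Ppargc1b was above (0.58), and the remaining members overlapped at both days. That is 1 of 10 members without overlap at day 14 and 4 of 10 at day 28, against 10.9% and 16.2% of all genes on the same scale. The part of cell composition and RNA quality in these differences was not tested.

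**Figure D4:**
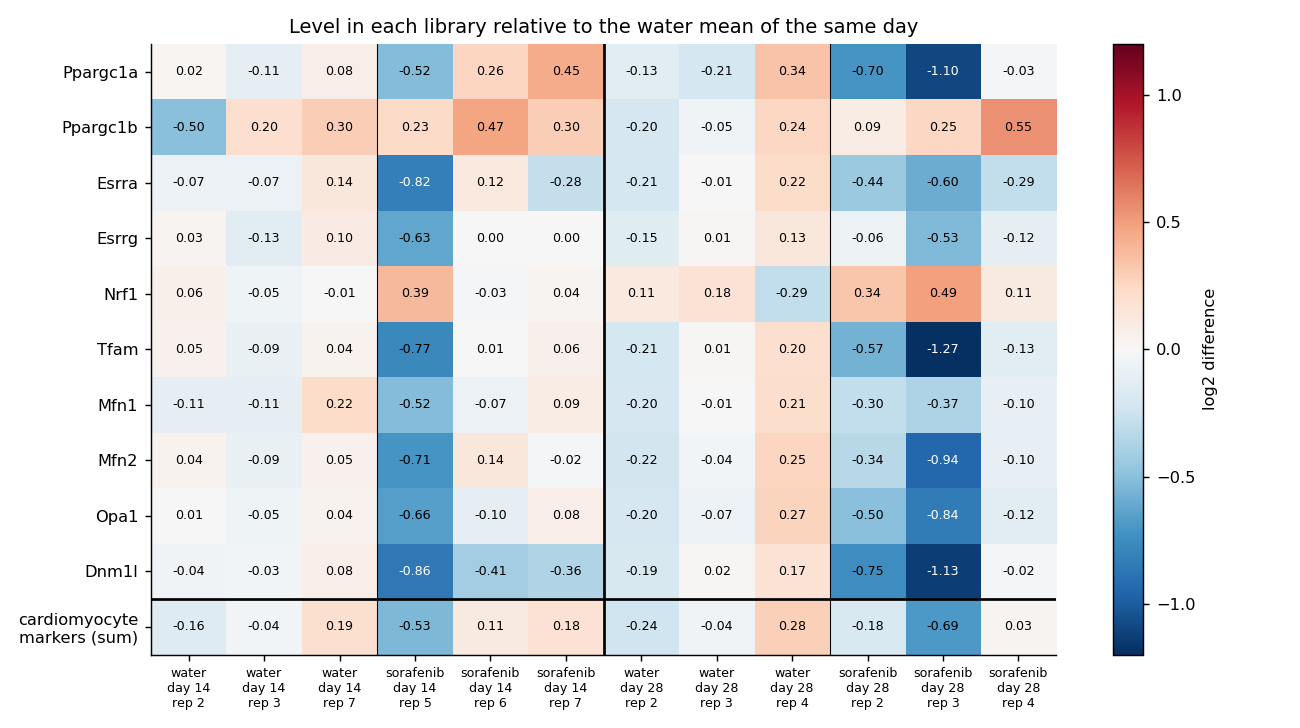
Log2 difference of each library from the water mean of its day (colour and printed value) for the 10 regulators, with the summed cardiomyocyte markers in the bottom row. Sorafenib day 14 replicate 5 and sorafenib day 28 replicates 2 and 3 are low in most rows and high in Nrf1, while sorafenib day 28 replicate 4 is near 0 in most rows other than Ppargc1b and Esrra.

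Among 11729 genes with a mean of 5 CPM or more, those whose pattern over the 12 libraries was most like that of Ppargc1a were Tsfm (r = 0.979), a mitochondrial translation elongation factor, and Ndufs3 (0.975), a complex I subunit. Phyh (0.974), a peroxisomal enzyme, Akap6 (0.972), a kinase anchor of muscle, and Lpl (0.969), lipoprotein lipase, followed. Over the 10 libraries left without the 2 named above their r was 0.947, 0.939, 0.943, 0.954 and 0.922. They are named because their r was highest, as a description. Ppargc1a itself had r of 0.897 with the cardiomyocyte marker sum over the 12 libraries. Whether these genes are regulated together was not tested.

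Genes that work with the regulators were read from lists of related pathways, tested in the same fits. At the single days none of them passed (edgeR). For the average of both days 6 of 126 genes tested in 8 lists, without clock and mitophagy genes, passed, or 4.76%, near the 4.41% of all genes. The coactivators' partner factors gave 2 of 25 called, both lower: Mef2a, a muscle transcription factor that drives Ppargc1a, at -0.63 ± 0.13 (adjusted p = 0.0251) and Gabpa, the DNA-binding subunit of GABP (nuclear respiratory factor 2), at -0.47 ± 0.12 (adjusted p = 0.0408). Among AMPK subunits and upstream kinases 1 of 10 fell, the calcium-dependent kinase gene Camkk2 (-0.57 ± 0.14, adjusted p = 0.0417), and 9 of 10 had values below 0. In the list of mitochondrial DNA transcription and replication 0 of 23 tested passed, with Polg2, a polymerase subunit, of smallest p at 0.46 (adjusted p = 0.114). Targets of PGC-1 and ERR gave 0 of 23, with cytochrome c (Cycs) at -0.59 (adjusted p = 0.106). These targets had a median of 0.09 at day 14 and -0.44 at day 28, where 22 of 23 were below 0. The cardiomyocyte markers beside them had a median of -0.24 at day 28 with all 10 below 0.

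On the dynamics side, 1 of 14 fission adaptors and partners fell: Mtfp1, an inner-membrane fission protein, at -0.76 ± 0.19 (adjusted p = 0.0408). Among fusion partners and proteases 1 of 14 fell, Marchf5, a ubiquitin ligase of the outer membrane that acts on DRP1 and mitofusins, at -0.57 ± 0.14 (adjusted p = 0.0379). In the list of cristae junctions 0 of 11 passed, and Mtx2 had -0.51 (adjusted p = 0.0679). Kif5b, a kinesin motor that carries mitochondria, was the 1 of 6 transport genes called (-0.70 ± 0.17, adjusted p = 0.0354). All of these p are from edgeR.

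These calls differ in how far they hold when a library is left out. Mef2a passed in 7 of 12 such fits and was lost without water day 14 replicate 3, sorafenib day 14 replicate 6, water day 28 replicate 3 or 4, or sorafenib day 28 replicate 2. Mtfp1 and Kif5b passed in 4, Gabpa and Marchf5 in 2 and Camkk2 in 1 of 12, and each of these was lost without, among others, water day 14 replicate 3, water day 28 replicate 3 or 4, or sorafenib day 28 replicate 2. Without both sorafenib day 14 replicate 5 and sorafenib day 28 replicate 3, Camkk2 (adjusted p = 0.0324), Mef2a (0.0465) and Mtfp1 (0.0469) passed (edgeR), and Marchf5 (0.0687), Kif5b (0.0704) and Gabpa (0.0714) did not. With the replicate number as a block none of these 6 passed (adjusted p of 0.156 to 0.459, edgeR). The day 14 groups share 1 number only, so in that fit their contrast rests on 1 pair. Fewer calls are thus partly built in, and that fit cannot show whether these calls hold.

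**Figure D5:**
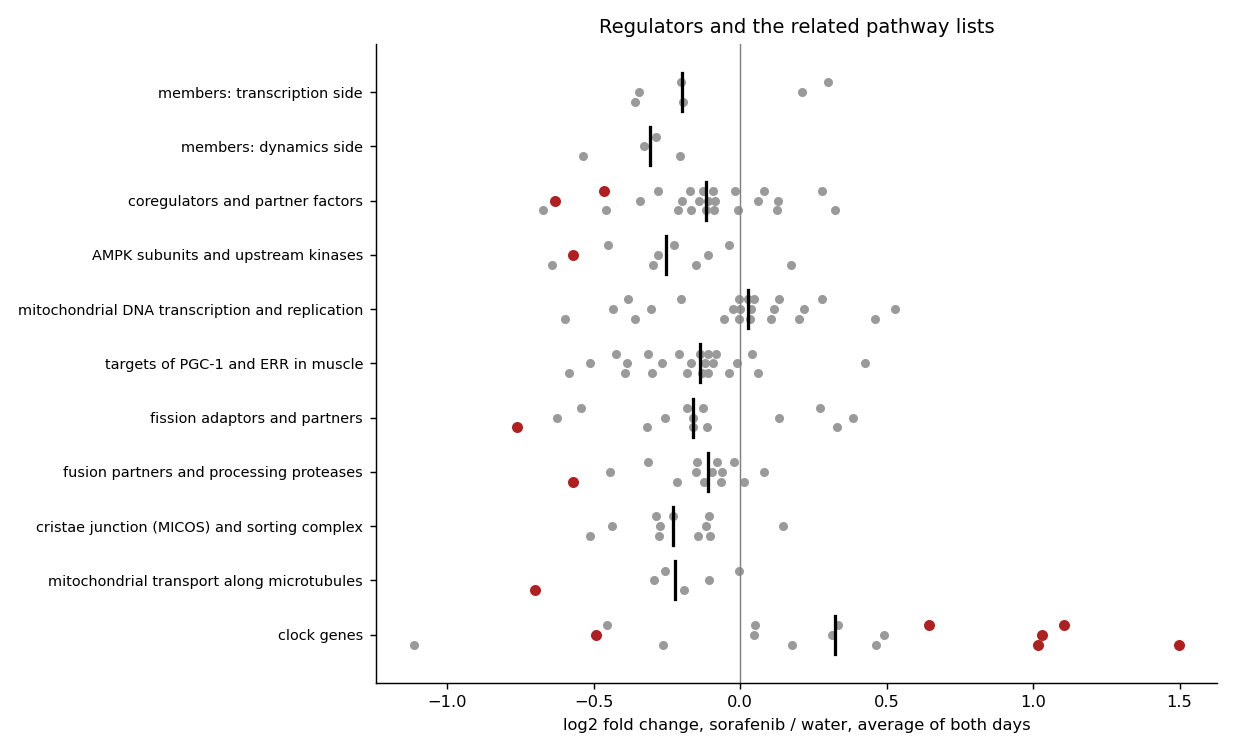
Log2 fold change over both days (horizontal axis) for every tested gene of the members and 9 pathway lists; red points passed an adjusted p of 0.05 (edgeR), grey points did not, and the black bar is the median of the list. The red points include Mtfp1 at -0.76 and Mef2a at -0.63, and none is a member.

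Clock genes were included because several of the regulators are known to follow the time of day. For the average, 5 of 16 rose and 1 fell (edgeR), against 2% and 2.41% of all genes. Ciart (1.499), Per3 (1.11) and Per2 (1.02) were higher and Clock (-0.49) lower. With 1 library left out these passed in 9, 10, 11 and 10 of 12 fits; each was lost without water day 14 replicate 3, and Ciart, Per3 and Clock also without sorafenib day 28 replicate 2. With the replicate number as a block none of these 4 passed (adjusted p of 0.206 to 0.513, edgeR), in a fit with the same limit at day 14. Between the water groups 7 of 16 were lower and 2 higher at day 28, against 2.7% and 5.8% of all genes. Among the lower were Dbp (-2.40), Per3 (-2.19), Bhlhe41 (-1.63) and Nr1d2 (-1.17). The time of day at which hearts were taken is not given in the sources used here, and its part in the members' values was not tested.

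The water groups show how the members differed between the days without the drug. Of the 10 genes, 7 were higher at day 28 and 3 lower (Ppargc1a -0.18, Esrrg -0.21 and Dnm1l -0.34 on the log2 scale), and the largest positive values were 0.35 for Mfn2 and 0.34 for Ppargc1b. The lowest adjusted p was 0.323 (edgeR). Of all genes tested, 5.8% were called higher at day 28 and 2.7% lower, the shares to set beside the counts of the lists below. Of the genes downstream, 5 of 23 targets of PGC-1 and ERR rose, among them the cytochrome oxidase subunit genes Cox5b (1.85) and Cox6a2 (1.81), the fatty-acid-binding protein gene Fabp3 (1.52) and the succinate dehydrogenase gene Sdhb (1.07). The median of that list was 0.46, with 22 of 23 above 0. Among partner factors Ppard (0.83), Hcfc1 (0.58) and Yy1 (0.47) rose and Creb1, whose product binds the cyclic AMP element, fell by 0.77. Lonp1, the matrix protease that degrades TFAM, rose by 0.98, and the cristae gene Chchd3 by 0.82. Mitophagy genes gave 5 of 19 higher, with Map1lc3a (1.67), Sqstm1 (1.04), Gabarapl1 (1.03) and Optn (0.76). Several of the largest rises were in short transcripts: exon lengths were 486 bases for Cox5b, 524 for Cox6a2, 766 for Fabp3 and 969 for Map1lc3a. Ppard (7395) and Hcfc1 (9307), which also rose, are long, as is Creb1 (7246), which fell. The part of transcript length was not tested. Of the genes named for the water groups, Hcfc1 (7 of 12), Ppard (5 of 12) and Yy1 (3 of 12) passed least often with 1 library left out. Chchd3, Optn and Sqstm1 passed in 8, Sdhb in 10 and Gabarapl1 in 11, and the others in all 12. With the replicate number as a block Hcfc1 (adjusted p = 0.0613), Ppard (0.143), Yy1 (0.171) and the clock gene Per3 (0.0515) no longer passed (edgeR). That block joined libraries of equal number across the days, a link that the labels do not give. The fit therefore cannot show whether these calls hold. Beside these genes, 2 of 10 cardiomyocyte markers rose and all 10 were above 0 (median 0.37). In the marker lists of other cells, 3 of 7 genes of smooth muscle and pericytes rose (median 0.66, with Cnn1 at 1.86 and Myh11 at 0.97). The adipocyte list gave 1 of 3 tested (Fabp4, 1.32) and the skeletal muscle list 1 of 5 tested (Ckm, 1.01). A rise of 1 listed gene does not show more of that cell type. The part of other cells in the change was not tested. The days come from separate tables, so age, length of gavage and any difference in handling cannot be told apart.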

How the data were processed

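Deposited values are read counts per gene. Per the file headers, the authors made them with featureCounts 2.0.1 (paired mode, strand not used) and a RefSeq annotation of mRatBN7.2; reads were aligned with STAR, per the submitters' processing notes. In the day 14 table, 2 count columns match no sample and were not used. Tests used edgeR 4.0.16 under R 4.3.3 on these counts (filterByExpr, TMM, robust quasi-likelihood test, Benjamini-Hochberg adjustment over all genes tested). Single days were fitted on their 6 libraries; the average, the difference and the water comparison on all 12 with equal weight per day. SE is from the fit, and intervals are at 95%. CPM are TMM-normalized. The members and the gene lists were chosen with earlier results of these data known. Of each list the genes past the threshold are named, at most 4 by smallest p, or for sorafenib comparisons with none the 1 of smallest p; for Ppargc1a the 5 genes of highest r are named. The mitophagy list is given for the water comparison alone; a result of it over both days is not reported here. Alternatives were DESeq2 1.42.0, other scalings and filters, a replicate block, and leaving out libraries. Code was tested on simulated data. No 2 libraries of the same group agreed within sampling noise (smallest chi-square per gene 7.5, in a pair with the shallow library, whose low depth lowers the value). Pairs from different groups were not compared in this way. Chromosomes were numbered by the order of their accessions: of 27234 symbols matched to GRCr8 (79.35%), 99.5% lay on the same chromosome.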

Additional observations from a re-analysis of the deposited data

Results flagged for a closer look

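Lonp1, the matrix protease gene, and the clock gene Bhlhe41 were singled out because all sorafenib libraries lay on one side of the water mean at day 14 and on the other at day 28. Lonp1 was at 74.8, 90.2 and 95.4 CPM with sorafenib against 70.6 ± 1.06 in water at day 14, and at 131, 87.0 and 130 CPM against 140 ± 22.8 at day 28 (SD, n = 3). The difference of its log2 fold changes, day 28 minus day 14, was -0.544 (unadjusted p = 0.0422, adjusted p = 0.999, edgeR). Bhlhe41 was at 19.2, 34.3 and 34.8 CPM against 38.9 ± 15.9 at day 14, and at 15.9, 15.9 and 20.4 CPM against 12.6 ± 2.70 at day 28. Its difference was 0.892 (unadjusted p = 0.0531, adjusted p = 0.999, edgeR). Neither difference passed the test.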

How the results depend on the processing

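The number of genes called depended on the tool and on single libraries. At day 14 it was 0 with edgeR, 392 with DESeq2, 87 with no filter on low counts, 4 in a fit of all groups and 0 to 27 with 1 library left out. At day 28 it was 0, 270, 82 and 53, and 0 to 3 with 1 library left out. The average gave 801 with edgeR, 1764 with DESeq2 and 35 (without sorafenib day 28 replicate 2) to 1562 (without sorafenib day 28 replicate 4). The difference gave 0, 5 with DESeq2 and 0 to 1. The water comparison gave 1546, 558 to 1812 with 1 library left out, and 2082 without both sorafenib day 14 replicate 5 and sorafenib day 28 replicate 3.

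With the replicate number as a block the calls were 108 at day 28, 37 for the average, 2 for the difference and 1024 for water, and 0 of the 10 members were called. The block joined equal numbers within a day, except for water, where it joined them across days. The labels give no link between numbers across days. Deviations of same-numbered libraries of day 28 had r of 0.0914, 0.0349 and 0.289, and those of other pairs -0.291 to 0.149. Sorafenib replicates 2 and 4 correlated best with their own number, and replicate 3 did not. These values do not settle whether the numbers are pairs, and the main fits do not use them as pairs. The day 14 groups share 1 number only, so with the block the average and the difference rest on 1 pair at day 14.

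Members called in the average were 0 with edgeR, 1 with DESeq2, 1 with library size as the only scaling and 0 to 1 with 1 library left out, each time Dnm1l. In water, library size alone gave 2 (Esrrg -0.43 and Dnm1l -0.56), a scaling that shifts the median of all genes there by -0.216 and by 0.112 at day 28.

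No estimate that turned its sign had passed the test. Without both those libraries, an alternative added after seeing the data, the average of Ppargc1a was 0.012 (-0.38 to -0.064 with 1 library left out), the difference of Dnm1l 0.057 and Nrf1 in water -0.0065. Differences that turned were Dnm1l with RLE factors (0.0041), library size (0.10) and a filter of 1 CPM (0.0083), Esrrg with library size (0.12) and that filter (0.0052), and Mfn1 with library size (0.050). In water Nrf1 turned with DESeq2 (-0.016), RLE (-0.016), library size (-0.20) and the filter (-0.0094), and Esrra (-0.018), Tfam (-0.0019) and Mfn1 (-0.11) with library size. With 1 library left out, day 14 values ranged from -0.28 to 0.00045 for Esrrg, -0.28 to 0.0021 for Mfn1, -0.31 to 0.062 for Mfn2, -0.33 to 0.033 for Tfam and -0.079 to 0.36 for Ppargc1a. Differences ranged from -0.40 to 0.18 for Dnm1l, -0.16 to 0.24 for Ppargc1b, -0.18 to 0.092 for Esrrg, -0.34 to 0.087 for Esrra, -0.23 to 0.021 for Mfn1 and -0.0021 to 0.30 for Nrf1, and Nrf1 in water from -0.083 to 0.14. The cause was not tested.

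Depth limits the shallow library, sorafenib day 28 replicate 3, in which the members have 19 to 364 counts.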

Other observations

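Perm1, which encodes a muscle regulator induced by PGC-1 and ERR, was chosen after its values were seen. It was at 188, 241 and 311 CPM in water and 106, 199 and 179 CPM in sorafenib at day 14, and at 189, 236 and 329 CPM in water and 142, 109 and 197 CPM in sorafenib at day 28. The average log2 fold change was -0.67 ± 0.20 (adjusted p = 0.0661, edgeR), and the groups overlapped at both days.

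Of 8 myeloid markers 3 were called lower over both days (edgeR), with all 8 below 0 and a median log2 fold change of -0.74. Of all genes 2.41% were called lower. Over both days 1 of 10 endothelial, 1 of 8 fibroblast and 1 of 6 atrial markers were called lower, and 0 of 7 smooth muscle, 0 of 10 cardiomyocyte, 0 of 4 erythroid and 0 of 5 skeletal muscle markers were called.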
